A study of Homo sapiens with 4 samples.

Results

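The genes of the epidermal growth factor (EGF) receptor family were followed in HaCaT, an immortalised human keratinocyte line, after 72 h with an inflammatory cytokine mix. The 10 members were chosen by name: the ligand genes HBEGF, AREG, TGFA, EREG, EPGN and BTC, the receptor genes EGFR, ERBB2 and ERBB3, and the inhibitor gene ERRFI1. The choice was made with earlier results of these data known. Each of the 10 had a row among the 27356 genes of every deposited table. Cells at a plating density of 50% received either M5, which combines IL-1α, IL-17, IL-22, TNF-α and Oncostatin M, each at 10 μg/L, or phosphate-buffered saline (PBS), in medium with fetal bovine serum. Polyadenylated RNA was sequenced from 2 M5 and 2 PBS libraries. Titles and protocols name M5, whereas a treatment tag of both M5 libraries names 25 μM of an agent abbreviated DAC, and the titles were followed here. All libraries come from 1 cell line, and whether its replicates were cultured apart is not said in the labels, so the tests rest on a spread between libraries that may be only technical. In bulk RNA, a change in the share of cells that express a gene and a change per cell cannot be told apart.

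Receptors of this family sit in the plasma membrane of epithelial cells. Binding of a ligand pairs EGFR with another EGFR or with ERBB2 or ERBB3 and switches on the RAS-ERK and PI3K pathways. The ligands are made as membrane-anchored precursors that proteases of the ADAM family cut free. In epidermis the family drives keratinocyte growth, migration and wound closure.

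The M5 libraries held 18992988 and 19749612 counts and the PBS libraries 15858644 and 16051974. Mitochondrially encoded mRNA took 3.42% and 3.73% of the M5 counts and 4.29% and 4.09% of the PBS counts. Of 10 keratinocyte markers 8 were called higher in M5 and 2 lower at an edgeR adjusted p under 0.05, where 28.8% and 27.1% of all 10809 tested genes were, and their summed level was 11686 to 12442 CPM (counts relative to library size, scaled by the trimmed mean of M-values, TMM) in M5 and 10132 to 10251 CPM in PBS. The summed levels of markers of other cell types were at most 8.89 CPM in any library. The highest of these, the 2 leukocyte markers with a row, summed to 8.12 and 8.89 CPM in M5 and 3.71 and 2.43 CPM in PBS, nearly all from CD14, while PTPRC, the marker of all leukocytes, had no row. COL1A2 and COL3A1 of the fibroblast list and TYR of the melanocyte list had no row either. The part of such cells in the results was not tested.

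Ligand mRNA rose with M5 and receptor mRNA moved little. Of the 10 members 9 passed the filter of a mean of at least 1 FPKM (counts per kilobase of gene length, scaled to the library's total) over the 4 libraries, each of them also with at least 1.15 FPKM in every PBS library. By edgeR's quasi-likelihood test at an adjusted p under 0.05, 6 of the 9 were called higher, against 28.8% of the 10809 genes tested, and 1 was called lower, against 27.1%. Across all tested genes 55.9% were called in either direction, so a call alone sets no gene apart. The 6 that rose did so at least 2-fold, which 6.48% of the tested genes did. The median log2 fold change of the 9 was 1.25, beside -0.01 for all tested genes.

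**Figure D1:**
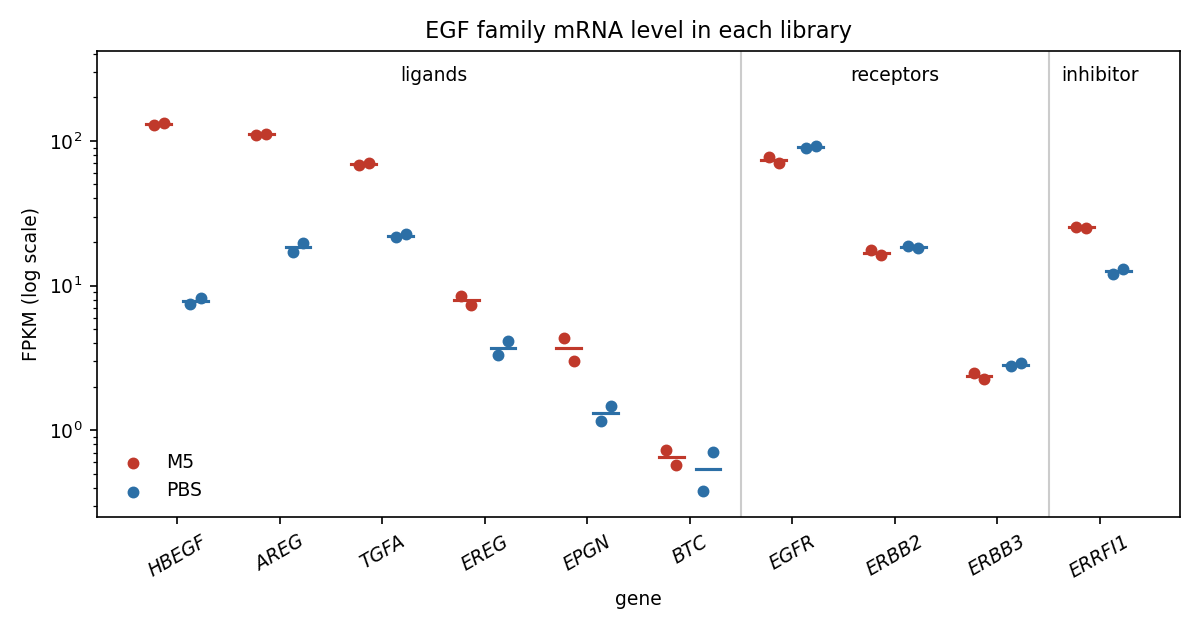
FPKM of each member in each library on a log axis, M5 in red to the left of PBS in blue, with 1 point per library and a bar at the mean of the 2 libraries of a group. The ligands HBEGF, AREG and TGFA lie far above their PBS points in M5, while the 3 receptors lie close to them.

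HBEGF, which encodes heparin-binding EGF-like growth factor, a ligand of EGFR that wounded keratinocytes release, rose most. Its gene (ENSG00000113070) lies on chromosome 5 from 140332843 to 140346631, minus strand, in GRCh38. HBEGF had 7360 and 7849 counts in M5, against 353 and 397 counts in PBS. On the scaled level this was 409.5 and 418 CPM in M5 and 21.1 and 23.5 CPM in PBS. Both M5 libraries thus stand well above both PBS libraries, and the libraries of a group lie close together. The fold was 18.5, a log2 fold change of 4.21 (SE 0.07, n = 2 each, edgeR adjusted p = 1.56e-19). This was the rise of rank 82 among all genes tested, and by FPKM the gene moved to rank 203 of all rows in M5, against rank 5063 in PBS.

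AREG encodes amphiregulin, a ligand of EGFR with a heparin-binding stretch that keratinocytes make for themselves. AREG (ENSG00000109321, chromosome 4, 74445134 to 74455009, plus strand) had 3423 and 3633 counts in M5, against 442 and 520 counts in PBS. The levels were 190.5 and 193 CPM in M5 and 26.4 and 30.8 CPM in PBS, again without overlap. It rose 6.71-fold, a log2 fold change of 2.75 (SE 0.07, n = 2 each, edgeR adjusted p = 2.11e-16), the rise of rank 155.

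TGFA encodes transforming growth factor α, another autocrine ligand of EGFR. TGFA (ENSG00000163235, chromosome 2, 70447280 to 70554193, minus strand) had 6389 and 6877 counts in M5, against 1680 and 1781 counts in PBS. The levels were 355 and 366 CPM in M5 and 100.5 and 105 CPM in PBS. The groups did not overlap, and the rise was 3.50-fold, a log2 fold change of 1.81 (SE 0.06, n = 2 each, edgeR adjusted p = 4.10e-15). A short transcript annotated inside its intron, TGFA-IT1, had at most 10 counts in a library.

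EREG and EPGN, which encode epiregulin and epigen, also rose, from lower levels. EREG (ENSG00000124882, chromosome 4, 74365143 to 74388751, plus strand) had 51.5 and 44.4 CPM in M5, against 17.9 and 22.5 CPM in PBS. Its log2 fold change was 1.25 (SE 0.11, n = 2 each, edgeR adjusted p = 1.76e-08), a 2.38-fold rise. EPGN (ENSG00000182585, chromosome 4, 74308473 to 74315307, plus strand) rested on fewer reads, with 271 and 197 counts in M5 and 60 and 78 counts in PBS. Its levels of 15.1 and 10.5 CPM in M5 and 3.59 and 4.61 CPM in PBS did not overlap, although the 2 M5 libraries differed more, in proportion, than for any other ligand that rose. The log2 fold change was 1.64 (SE 0.21, n = 2 each, edgeR adjusted p = 2.81e-06), with values between 1.36 and 1.88 when 1 library was left out.

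BTC, which encodes betacellulin, a ligand of both EGFR and ERBB4, had the fewest counts of the members. BTC (ENSG00000174808, chromosome 4, 74744759 to 74794686, minus strand) had 37 and 30 counts in M5, against 16 and 30 counts in PBS. The groups overlapped. It did not pass the FPKM filter, and without a filter its log2 fold change of 0.44 (SE 0.37) had an edgeR adjusted p of 0.530, so no difference was detectable at this depth.

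The makeup of the ligand mRNA differed between the groups as well as its amount. Levels of different genes were set side by side per length, as TPM (FPKM rescaled to the same sum in every library). The 6 ligands summed to 1295 TPM in each M5 library, against 207 and 232 TPM in the PBS libraries, a 5.89-fold difference or 2.56 on the log2 scale. HBEGF made up 40.3% and 40.7% of this sum in M5, against 14.7% and 14.5% in PBS. TGFA made up 21.3% and 21.7% in M5, against 42.4% and 39.7% in PBS. AREG kept close to the same share, with 34.2% and 34.3% in M5 and 33.4% and 34.7% in PBS. HBEGF was thus the most abundant ligand mRNA in M5 and TGFA in PBS. EREG, EPGN and BTC together gave the rest, with EREG at 2.66% and 2.26% in M5 and 6.50% and 7.28% in PBS. With 2 libraries against 2, an exact two-sided permutation test of the sum gave p = 0.333, which is the smallest p this design allows.

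**Figure D2:**
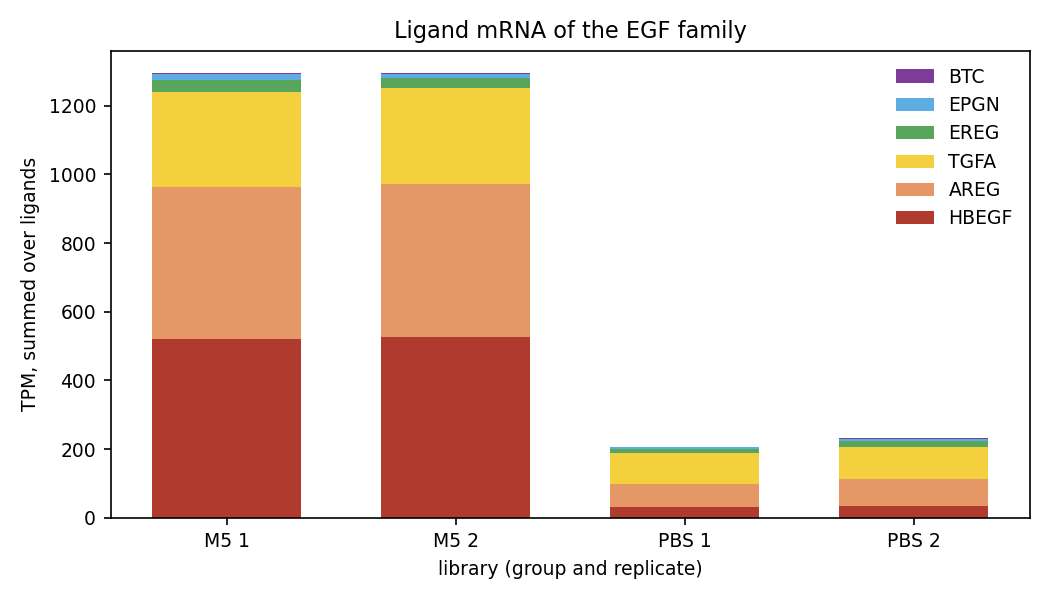
Summed TPM of the 6 ligand genes in each library, M5 libraries to the left of PBS libraries, with 1 colour per ligand. The M5 bars reach 1295 TPM and are mostly HBEGF and AREG, whereas the PBS bars end at 207 and 232 TPM with TGFA as the largest block.

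The receptors showed no change of comparable size. EGFR encodes the receptor that binds all 6 ligands. EGFR (ENSG00000146648, chromosome 7, 55019021 to 55211628, plus strand) was by far the most strongly counted member, with 23470 and 22212 counts in M5 and 22509 and 23450 counts in PBS. Its scaled level was 1306 and 1182 CPM in M5, against 1346 and 1387 CPM in PBS. The groups lay apart by a margin smaller than the gap between the 2 M5 libraries. The log2 fold change of -0.14 (SE 0.05, n = 2 each) passed the threshold with an edgeR adjusted p of 0.0426, and over its alternatives the adjusted p ran from 7.71e-05 to 0.267. The call was lost without M5 replicate 2 (-0.06), without PBS replicate 1 (-0.16), without PBS replicate 2 (-0.12), with median-of-ratios scaling or DESeq2 (-0.13 each) and with no filter or edgeR's own count filter (-0.11 each), and the value was -0.29 with library totals. Reads of the antisense gene EGFR-AS1, which an unstranded library cannot tell apart where the genes overlap, numbered at most 59 in a library.

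ERBB2 encodes a receptor that has no ligand of its own and serves as the favoured partner of the others. ERBB2 (ENSG00000141736, chromosome 17, 39687914 to 39730426, plus strand) had 192 and 176 CPM in M5, against 183 and 178 CPM in PBS. The groups overlapped on this scale, though not in FPKM, with 17.6 and 16.2 in M5 and 18.7 and 18.2 in PBS. The log2 fold change was 0.03 (SE 0.06, n = 2 each, edgeR adjusted p = 0.731), or -0.12 with library totals. Its ends overlap MIEN1 and PGAP3 on the other strand, which had 266 to 362 and 157 to 355 counts in a library. ERBB3 encodes a receptor of the neuregulins with little kinase activity. ERBB3 (ENSG00000065361, chromosome 12, 56076799 to 56103505, plus strand) had 30.6 and 27.8 CPM in M5, against 30.7 and 32.4 CPM in PBS. Its groups did not overlap either, although it was not called. With 2 libraries against 2, a lack of overlap alone sets no gene apart. The share of all genes without overlap was not computed. The log2 fold change of ERBB3 was -0.11 (SE 0.10, n = 2 each, edgeR adjusted p = 0.337), and -0.26 with library totals, where it was called lower (edgeR adjusted p = 0.0239). The direction of ERBB2 and the call of ERBB3 thus depended on the scaling, and library totals moved the median of all tested genes to -0.16, against -0.01 with TMM.

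ERRFI1 encodes MIG6, a feedback inhibitor that binds the kinase domain of EGFR and is itself induced by receptor signalling. ERRFI1 (ENSG00000116285, chromosome 1, 8004404 to 8026308, minus strand) had 2030 and 2051 counts in M5, against 792 and 877 counts in PBS. Its level was 113 and 109 CPM in M5 and 47.4 and 51.9 CPM in PBS, so the groups did not overlap. The antisense gene AL034417.4 (ENSG00000284747), which overlaps its end, had 8 to 26 counts in a library. ERRFI1 rose 2.24-fold, a log2 fold change of 1.16 (SE 0.07, n = 2 each, edgeR adjusted p = 2.72e-11).

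**Figure D3:**
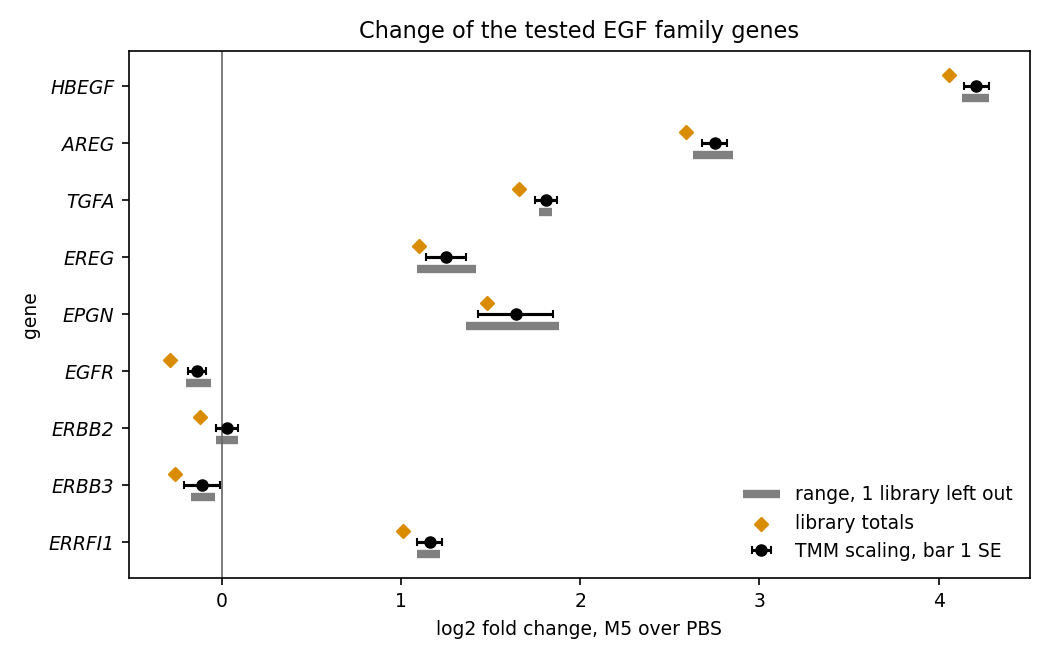
Log2 fold change of M5 over PBS for the 9 tested members. Black points with bars of 1 SE are with TMM scaling, orange diamonds with library totals, and grey bars span the values with 1 library left out. The 5 ligands and ERRFI1 lie to the right of 0 under all of these, with 1.01 for ERRFI1 under library totals as the smallest value, and ERBB2 lies on both sides of 0.

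Ratios within a library, which no scaling factor changes, were taken against EGFR. The summed ligand mRNA was 4.15 and 4.63 times the EGFR mRNA in M5, against 0.570 and 0.621 times in PBS, by TPM. HBEGF mRNA alone was 1.67 and 1.88 times EGFR mRNA in M5, against 0.0836 and 0.0903 times in PBS. By TPM the summed ligand mRNA thus exceeded EGFR mRNA in both M5 libraries and fell short of it in both PBS libraries. This rests on the gene lengths used. By counts, which are not per length, the summed ligand mRNA stayed below EGFR mRNA in both M5 libraries as well. HBEGF alone had 7360 and 7849 counts in M5, against 23470 and 22212 for EGFR. ERRFI1 stood at 0.330 and 0.352 times EGFR in M5 and 0.134 and 0.143 times in PBS. For ERBB3 the ratio to EGFR was 0.0319 and 0.0321 in M5 and 0.0311 and 0.0318 in PBS. The smallest p that an exact permutation test of such a ratio can give here is 0.333.

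Per length, the order of the members differed between the groups. In M5 it ran from HBEGF at a mean of 131 FPKM over AREG at 111, EGFR at 74.0, TGFA at 69.6, ERRFI1 at 25.2, ERBB2 at 16.9, EREG at 7.97, EPGN at 3.67 and ERBB3 at 2.37 to BTC at 0.653 FPKM. In PBS it ran from EGFR at 90.3 FPKM over TGFA at 22.1, ERBB2 at 18.5, AREG at 18.4, ERRFI1 at 12.5, HBEGF at 7.86, EREG at 3.72, ERBB3 at 2.84 and EPGN at 1.31 to BTC at 0.542 FPKM. The neighbours EGFR and TGFA in M5, and ERBB2 and AREG in PBS, overlapped in their ranges over libraries, and the other neighbours did not. The gene lengths behind these values, 15941 bp for EGFR and 1642 bp for AREG, are those of the deposited FPKM. A gene whose main transcript is shorter than that length is understated on this scale, and transcripts were not resolved.

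EPGN, EREG, AREG and BTC share 1 stretch of chromosome 4. They lie in that order within 486 kb, with 49.8 kb between EPGN and EREG, 56.4 kb between EREG and AREG and 289.8 kb between AREG and BTC. The 3 on the plus strand rose, and the 1 on the minus strand did not pass the FPKM filter. Within 500 kb on either side the tables held 17 genes and 11 were tested, of which 10 were called higher and 0 lower by edgeR, beside 28.8% and 27.1% of all tested genes, in a window chosen after these values were seen. All 6 tested CXC chemokine genes of the window are among the 10. CXCL2, CXCL3, CXCL5 and PPBP had a PBS mean of at most 0.283 FPKM and passed the filter only through M5, so they had to differ. MTHFD2L, also among the 10, had a PBS mean of 0.910 FPKM and likewise passed only through M5. Of the 6 genes with a PBS mean of at least 1 FPKM, 5 were called higher, including the 3 ligands, beside the same 28.8%. The window was drawn around the ligands, so these 3 add no weight to that count.

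RefSeq promoter windows, from 250 bases before to 50 after an annotated start on GRCh38.p14, were at hand for 9 of the 10 members, and ERBB3 had none. The windows of the 3 neighbouring ligands that rose and of HBEGF are printed to show how differently their start regions are built, 5′ to 3′ on the gene's strand. Capitals mark matches to TATAAA (sense strand), the cyclic AMP response element TGACGTCA and the SP1 core GGGCGG (both strands). The AREG window is chr4:74444886-74445185, the EREG window chr4:74364895-74365194, the EPGN window chr4:74308220-74308519 (all plus strand) and the HBEGF window chr5:140346554-140346853 (minus strand).
AREG: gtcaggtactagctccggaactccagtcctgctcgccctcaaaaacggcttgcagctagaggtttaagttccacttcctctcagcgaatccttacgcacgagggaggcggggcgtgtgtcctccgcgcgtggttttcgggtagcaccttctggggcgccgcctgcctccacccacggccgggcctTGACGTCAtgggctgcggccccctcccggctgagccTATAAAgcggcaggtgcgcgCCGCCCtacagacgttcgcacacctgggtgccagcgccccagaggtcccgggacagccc
EREG: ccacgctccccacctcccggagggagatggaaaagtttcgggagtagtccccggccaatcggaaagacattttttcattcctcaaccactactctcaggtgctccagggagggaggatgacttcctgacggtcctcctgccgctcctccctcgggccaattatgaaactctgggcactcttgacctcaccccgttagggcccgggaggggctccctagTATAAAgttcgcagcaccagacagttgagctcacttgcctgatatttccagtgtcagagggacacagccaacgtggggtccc
EPGN: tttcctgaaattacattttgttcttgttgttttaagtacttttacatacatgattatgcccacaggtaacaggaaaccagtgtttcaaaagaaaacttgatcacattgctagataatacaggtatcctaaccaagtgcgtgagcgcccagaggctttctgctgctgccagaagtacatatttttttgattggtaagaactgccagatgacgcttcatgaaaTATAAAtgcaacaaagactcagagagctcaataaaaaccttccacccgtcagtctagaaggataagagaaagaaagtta
HBEGF: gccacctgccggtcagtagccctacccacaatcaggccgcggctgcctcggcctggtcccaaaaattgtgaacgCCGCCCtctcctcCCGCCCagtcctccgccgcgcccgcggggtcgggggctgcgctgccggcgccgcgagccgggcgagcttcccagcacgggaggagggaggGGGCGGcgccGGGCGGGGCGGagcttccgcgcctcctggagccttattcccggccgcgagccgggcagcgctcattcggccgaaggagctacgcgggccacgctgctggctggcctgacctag

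The 3 chromosome 4 windows each hold TATAAA shortly before the start, its first base 29 bases before it in AREG, 32 in EREG and 29 in EPGN. TATAAA on the sense strand was in 7.33% of all 35116 windows, and in 2.17% with its first base 25 to 35 bases before the start. The AREG window also holds TGACGTCA with its first base 65 bases before the start, a match that 1.85% of windows have. HBEGF has no TATAAA but 5 matches to GGGCGG, of which the last 2 before the start overlap by 1 base, in a window with 75.0% G and C. That motif was in 45.0% of all windows. The G and C content was 66.3% in AREG, 57.7% in EREG and 37.7% in EPGN, beside a median of 58.7% over all windows. TATAAA was not confined to the ligands that rose: the downstream of the 2 EGFR windows holds it with its first base 146 and 36 bases before the start. BTC, the other chromosome 4 ligand, lacks this exact string, and so do the upstream EGFR window, both TGFA windows and the ERBB2 and ERRFI1 windows. Variants of it were not searched for, so stretches such as tatatata in the ERRFI1 window and ataaata in the BTC window were not counted. These windows therefore cannot be said to lack such an element. The AP-1 motif TGANTCA, in 7.71% of all windows, occurs at 1 place in the ERBB2 window and at 2 places in the downstream EGFR window, and in no ligand's window. The NF-κB consensus, in 5.91% of all windows, matches 1 of the 2 TGFA windows, with its first base 219 bases before the start. No member's window holds the STAT motif TTCNNNGAA (7.66% of all windows) or the SRF consensus (1.29%). A match is a description of the letters and not of binding.

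Beyond the members, 6 lists of genes of the pathway were examined, in which 66 of 76 genes were tested, 36 were called higher (54.5%) and 12 lower (18.2%), beside the 28.8% and 27.1% of all tested genes. With library totals, whose counts are given in brackets for each list, 20.4% of all tested genes were called higher and 41.3% lower. The lists were chosen with earlier results of these data known, so their shares are descriptions only. SH3KBP1 and FOS, both among the 36, passed the filter only through M5. Among the other EGF family genes only the neuregulin gene NRG1, whose products bind ERBB3, passed the FPKM filter. NRG1 had 380 and 378 CPM in M5, against 204 and 215 CPM in PBS, and rose by a log2 value of 0.85 (SE 0.06, edgeR adjusted p = 1.49e-10). EGF itself had 0 counts in both M5 libraries and 1 and 3 counts in PBS, and the receptor gene ERBB4 had 6 and 4 counts in M5 and 10 and 4 in PBS.

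Of 9 tested sheddases and their regulators 5 rose (55.6%) and 1 fell (11.1%), beside 28.8% and 27.1% of all tested genes, with a median log2 fold change of 0.29 (4 higher and 3 lower with library totals). Without M5 replicate 2 the number lower was 2. Both limma fits called 3 higher and 3 lower. A mean of at least 5 FPKM gave 4 higher and 2 lower, and edgeR's own count filter 6 higher and 1 lower. RHBDL2, a rhomboid protease, rose by 0.93 (SE 0.19) and ADAM9, a membrane metalloprotease, by 0.74 (SE 0.06), while ADAM19 fell by 0.68 (SE 0.06). ADAM17, the main sheddase of AREG, TGFA and HBEGF, stood at 0.14 on the log2 scale (SE 0.08) and was not called, and is named after its value was seen. Of 12 tested receptor attenuators 4 rose (33.3%) and 3 fell (25.0%), shares near the 28.8% and 27.1% of all tested genes, with a median of 0.00 (3 and 5 with library totals). The number lower was 0 without PBS replicate 2, 1 without M5 replicate 1, 2 without PBS replicate 1, 1 with DESeq2 and 1 at an adjusted p under 0.01. SH3KBP1, an adaptor of receptor endocytosis, rose by 1.64 (SE 0.13) with 475 and 550 counts in M5 and 156 and 144 in PBS. At 0.604 and 0.551 FPKM in PBS it passed the filter only through M5, where it had 1.53 and 1.71 FPKM. Its place among the 4 thus depended on its rise. CBLC, a ubiquitin ligase of the CBL family, rose by 0.45, and SOCS5 fell by 0.46 (edgeR adjusted p = 0.00553). The SOCS5 call was lost when M5 replicate 1 (log2 -0.32, edgeR adjusted p = 0.0514) or PBS replicate 2 (log2 -0.36, edgeR adjusted p = 0.0732) was left out, and over its alternatives leaving out a library the adjusted p ran from 5.07e-04 to 0.0732.

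In the core of adaptors, RAS-ERK and PI3K genes 12 of 21 tested genes rose (57.1%) and 1 fell (4.76%), beside 28.8% and 27.1% of all tested genes, and the median log2 value was 0.30 (10 and 3 with library totals). The number lower was 0 without M5 replicate 1 and without PBS replicate 1. It was also 0 with DESeq2, with no filter, at a mean of at least 5 FPKM and at an adjusted p under 0.01, and 2 with both limma fits. The number higher was 7 with both limma fits, and 13 with median-of-ratios scaling and with edgeR's own count filter. MAP2K1, which encodes the ERK kinase MEK1, had 202 and 199 CPM in M5, against 108 and 103 CPM in PBS, and rose by 0.92 (SE 0.06). SHC1, an adaptor that docks on the receptor, rose by 0.92 (SE 0.06) and the docking protein gene GAB2 by 0.78 (SE 0.16). Among genes that ERK signalling induces 9 of 15 rose (60.0%, beside 28.8%) and 4 fell (26.7%, near the 27.1% of all tested genes), with a median of 0.28 (7 and 4 with library totals). Without M5 replicate 1 the number higher was 6. The ERK phosphatase genes DUSP5 and DUSP4 rose by 2.12 (SE 0.13) and 1.33 (SE 0.06), and PHLDA1 by 1.65 (SE 0.06). The genes of this list that fell were ETV4 by 0.57, EGR1 by 0.51, CCND1 (cyclin D1) by 0.37 and SPRED2 by 0.34, named after their values were seen.

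Of 8 other receptor tyrosine kinases of epithelia that were tested, 5 rose (62.5%) and 3 fell (37.5%), beside 28.8% and 27.1% of all tested genes, and the median log2 value was 0.28 (4 and 3 with library totals). FGFR2, whose epithelial form binds keratinocyte growth factor, had 21.5 and 19.8 CPM in M5, against 57.7 and 59.3 CPM in PBS, and fell by 1.50 (SE 0.09, edgeR adjusted p = 4.09e-11). AXL fell by 1.17 (SE 0.08), and the insulin receptor gene INSR rose by 0.96 (SE 0.13).

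**Figure D4:**
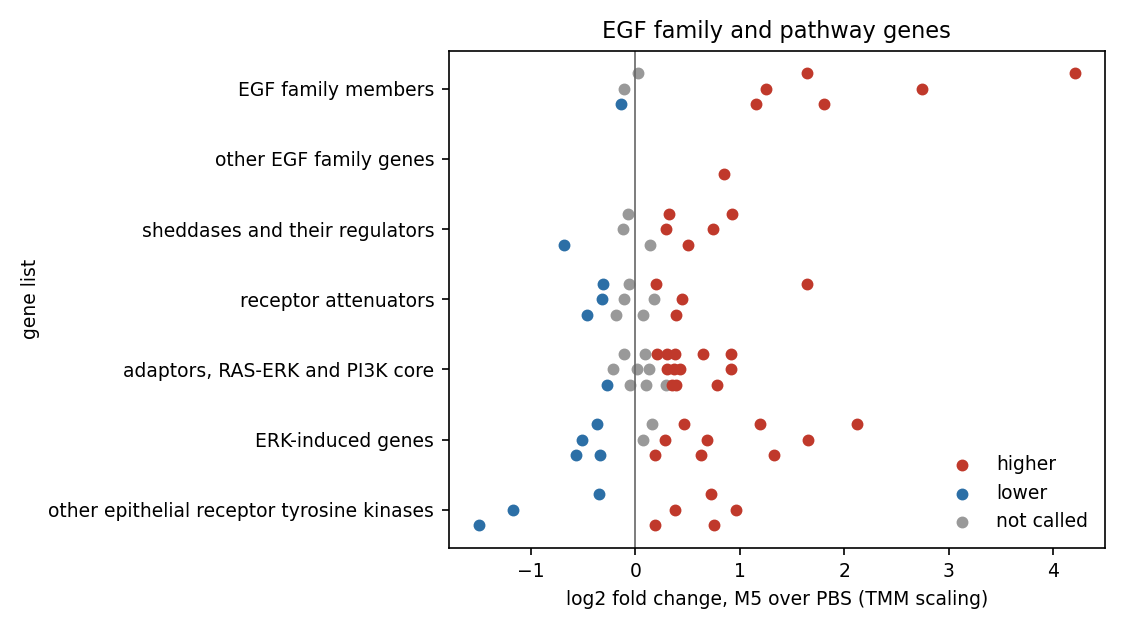
Log2 fold change of M5 over PBS, with TMM scaling, of each tested gene of the family and of the 6 pathway lists, 1 point per gene, red where called higher, blue where called lower and grey where not called. The members reach 4.21, the value of HBEGF, and the largest value in the pathway lists is 2.12, that of DUSP5.

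The genes whose profile over the 4 libraries was most like that of HBEGF were sought among 10773 other tested genes with counts in every library, by the Euclidean distance of log2 CPM centred on each gene's mean. They were SOD2, the mitochondrial superoxide dismutase, at a distance of 0.194, SLPI, a secreted antiprotease, at 0.231 and NEURL3, a ubiquitin ligase, at 0.238. Their log2 fold changes were 4.09, 4.13 and 4.34. With 2 groups of 2 libraries this likeness is mostly that of the fold change.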

How the data were processed

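Each deposited table holds, per the file headers, a whole-number read count and an FPKM value per Ensembl gene for 1 library. The build GRCh38, the aligner HISAT2 and HTSeq 0.13.5 appear in the submitters' processing notes. Strand setting, annotation release and the handling of multiply aligned reads are not stated there or in the labels. Dividing the deposited counts by the deposited FPKM gave whole gene lengths to within 3.1e-08 bp. The library kit does not mark strand. Groups and replicate numbers come from the titles.

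Counts were tested with edgeR 4.0.16 (quasi-likelihood, TMM scaling, R 4.3.3, two-sided) over all genes with a mean of at least 1 FPKM, with Benjamini-Hochberg adjustment. SE is the log2 fold change over the square root of F. In single libraries 3 counts equal 0.160 to 0.179 CPM, which covers counting error only. Alternatives used limma 3.58.1 on log2(FPKM + 1) and log2(FPKM + 0.1), DESeq2 1.42.0, other scalings and filters, and each library left out. The fit was tested on simulated counts. Within a group, libraries varied beyond counting error (median chi-square per gene 1.77 in M5 and 0.998 in PBS, against 0.455 from counting error alone). Gene positions come from GENCODE 29 (GRCh38), in which 93.2% of the deposited identifiers were found, and promoter windows from RefSeq.

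Members and lists were chosen with earlier results of these data known. Named genes are the 10 members, up to 3 called genes of each pathway list with the largest absolute change, and the 3 genes most like the member that changed most.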

Additional observations from a re-analysis of the deposited data

How the results depend on the processing

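The 6 members called higher stayed higher and called under each of the alternatives that tested them, with EPGN left untested at a mean of at least 5 FPKM. Members called lower numbered 1, and 0 with median-of-ratios scaling, DESeq2, no filter, filterByExpr and an adjusted p under 0.01, 2 with library totals, and 0 to 1 with 1 library left out. ERBB2 had log2 values of -0.12 with library totals and with both limma fits, -0.01 at 5 FPKM, and -0.03 to 0.09 with 1 library left out. ERBB3 was 0.02 as a ratio to EGFR, an alternative chosen after seeing the data. Genes called higher numbered 2010 and 2005 with limma on log2(FPKM + 1) and log2(FPKM + 0.1), against 3114, and genes called lower 4463 with library totals, against 2929. The causes were not tested. The log2 ratio of the ligand sum was 2.56 from TPM, 2.59 from FPKM and 2.52 from TMM-scaled CPM. It ran from 2.48 to 2.64 with 1 library left out, a range set by the gap between the libraries of a group. Same-numbered libraries did not deviate together (correlation -0.0207 over genes, 2 pairs), and a replicate block gave 3132 genes higher and 2959 lower, with no member's call changed. A lone library left in a group was assumed to vary like the other group. Depth limits BTC, at 16 to 37 counts, and EPGN.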
